A study of Homo sapiens with 12 samples.

Results

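The transcripts described here encode 9 enzymes of the urea cycle and of amino acid breakdown: CPS1, ASS1, ASL and ARG1 of the urea cycle, AGXT and GLDC of glyoxylate and glycine disposal, HPD and HGD of tyrosine breakdown, and TDO2 of tryptophan breakdown. They were chosen by symbol: each is the row of the deposited expression table whose gene name equals one of these symbols, so that the members are 9 of its 15822 loci. HepaRG is a human hepatoma line that can differentiate in culture into cells resembling hepatocytes and biliary cells. RNA was sequenced from HepaRG cells of wild-type genotype (WT) and from cells labelled hCAR-KO (here KO), in which the gene for CAR, the constitutive androstane receptor, was to be knocked out. Each genotype received the solvent DMSO, phenobarbital (PB) or CITCO, giving 6 groups of 2 libraries. CITCO is a synthetic agonist of human CAR, and PB activates CAR indirectly and also acts through the related pregnane X receptor. Not given in the sources used here are the doses, how long cells were exposed, the design of the knockout and whether the KO cells are 1 clone. The labels do not say that duplicates were separate cultures, so the p-values measure only how far these libraries spread, and that spread may be technical.

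The urea cycle turns the ammonia released by amino acid breakdown into urea. It is carried out mainly by periportal hepatocytes, in steps shared between mitochondria (CPS1) and cytosol (ASS1, ASL, ARG1). The other 5 enzymes stand at the start or along the route by which the liver degrades glyoxylate, glycine, tyrosine and tryptophan. Their transcription in liver depends on hepatocyte factors such as HNF4A, C/EBP alpha and FOXA proteins and responds to glucagon, glucocorticoids and feeding.

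Upstream sequence is shown for ARG1, the member that was higher in KO cells, and for ASL and TDO2, members that were lower, the latter being the ones in which a searched motif falls in the printed stretch. The sequences are RefSeq's, GRCh38.p14, and run 5' to 3' from 250 bases before a RefSeq transcription start up to the base ahead of the nearest GENCODE 29 exon. Capitals mark the nuclear receptor core motif AGTTCA (read on the opposite strand as TGAACT) in TDO2 and the cyclic AMP response core motif TGACG in ASL.
ARG1, chr6:131572976-131573143, plus strand: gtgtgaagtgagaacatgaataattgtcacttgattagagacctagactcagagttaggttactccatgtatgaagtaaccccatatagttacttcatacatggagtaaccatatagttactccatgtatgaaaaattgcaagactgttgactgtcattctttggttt
ASL, chr7:66075569-66075797, plus strand: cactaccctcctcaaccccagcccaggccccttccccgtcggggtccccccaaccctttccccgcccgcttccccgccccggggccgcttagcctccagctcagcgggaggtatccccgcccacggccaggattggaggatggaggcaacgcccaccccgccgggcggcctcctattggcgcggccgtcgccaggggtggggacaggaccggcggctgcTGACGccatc
TDO2, chr4:155903446-155903692, plus strand: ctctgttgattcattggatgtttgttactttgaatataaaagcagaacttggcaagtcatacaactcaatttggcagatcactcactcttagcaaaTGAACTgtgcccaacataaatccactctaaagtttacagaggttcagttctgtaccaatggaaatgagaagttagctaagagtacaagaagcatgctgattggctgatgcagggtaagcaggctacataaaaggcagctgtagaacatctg
The ARG1 and ASL stretches lie outside their genes. The TDO2 stretch lies within the span that GENCODE 29 gives TDO2, outside its exons. RefSeq windows of 250 bases before to 50 after a start were at hand for 8 of the 9 members, 12 windows in all. HGD had no entry. On either strand, AGTTCA was found for CPS1 and TDO2 and in 10.4% of all 35116 windows, and AGGTCA was found for TDO2, at the start itself, and in 13.8% of windows. TGACG was found for ASL, 31 bases before the start, and for HPD, and in 24.6% of windows. A direct repeat of these receptor motifs spaced by 4 bases, the arrangement known for CAR, was found for 0 members and in 0.0342% of windows. The FOXA core TGTTTAC (3.42% of windows) was also found for 0 members. A match is a description of letters and not a shown binding site.

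Expression is given as the deposited normalized CPM, read counts scaled to a common library size. Read counts were recovered from the smallest step between the deposited values. They summed to between 49258123 and 66453415 per library over the 15822 loci, and reads outside these loci are not included. The 9 members held between 1852 and 67229 recovered reads in a library. Duplicates of every group differed by more than sampling noise (chi-square per degree of freedom over all loci of 4.14 to 10.4). The deposited values carry normalization factors, since their sums were 1.07 to 1.11 times (WT) and 0.9003 to 0.935 times (KO) that of plain CPM. The targeted gene NR1I3 had means of 11.7 CPM (WT) and 10.8 CPM (KO) under DMSO, a difference that did not pass the test (adjusted p = 0.273). The kind of lesion is not known here, so this level checks nothing about the labels. CYP2B6, the classical CAR target, went from 36.1 to 429.5 CPM with CITCO in WT cells and from 9.59 to 16.8 CPM in KO cells. With PB its libraries held 442 and 447 CPM in WT cells and 230 and 226 CPM in KO cells, so PB raised it in both genotypes.

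Of the hepatocyte markers, 7 of 8 had a row, and they summed to between 140327 and 158034 CPM in WT and between 58075 and 61120 CPM in KO libraries. ALB alone made up most of these sums. The 5 of 7 biliary markers with a row summed to between 379 and 469 CPM in WT and between 104 and 122 CPM in KO libraries. Most of that sum was KRT19, with 383 and 432 CPM in WT and 83.9 and 84.0 CPM in KO cells under DMSO. SOX9 and CLDN4 were also lower in the KO DMSO libraries. SPP1 was higher there, at 29.2 and 29.3 CPM against 11.5 and 12.2 CPM in WT. So was KRT7, at 2.27 and 1.56 CPM against 0.80 and 1.09 CPM. The proliferation markers MKI67, TOP2A and CCNB1 summed to between 117 and 165 CPM in WT and between 328 and 415 CPM in KO libraries. Mesenchymal markers, of which 2 of 6 had a row, summed to between 29.7 and 45.0 CPM over all libraries, and 0 of 3 blood cell markers had a row. Fewer hepatocyte-like cells and less of a transcript per cell cannot be told apart in these bulk libraries.

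All 9 members differed between the genotypes, 8 of them lower and ARG1 higher in KO cells, under each of the 3 treatments. Under DMSO the glycine cleavage enzyme GLDC stood at 0.306 times its WT level, the lowest ratio of the 9, and ARG1, the enzyme that releases urea from arginine, stood at 2.45 times its WT level. The members' counts are 9 of 9 under DMSO, PB and CITCO, where 57.7%, 58.3% and 59% of the 15792 loci tested were called, and 29.4%, 28.9% and 29.8% were called lower. A locus was called when limma's Benjamini-Hochberg adjusted p over all loci tested was under 0.05. The members' median log2 difference was -0.83 under DMSO, -0.56 under PB and -0.63 under CITCO, while that of all loci was -0.00319, 0.0025 and -0.003. Libraries of the genotypes did not overlap for any member under any treatment, as for 76.2%, 78.9% and 80.5% of all loci.

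**Figure D1:**
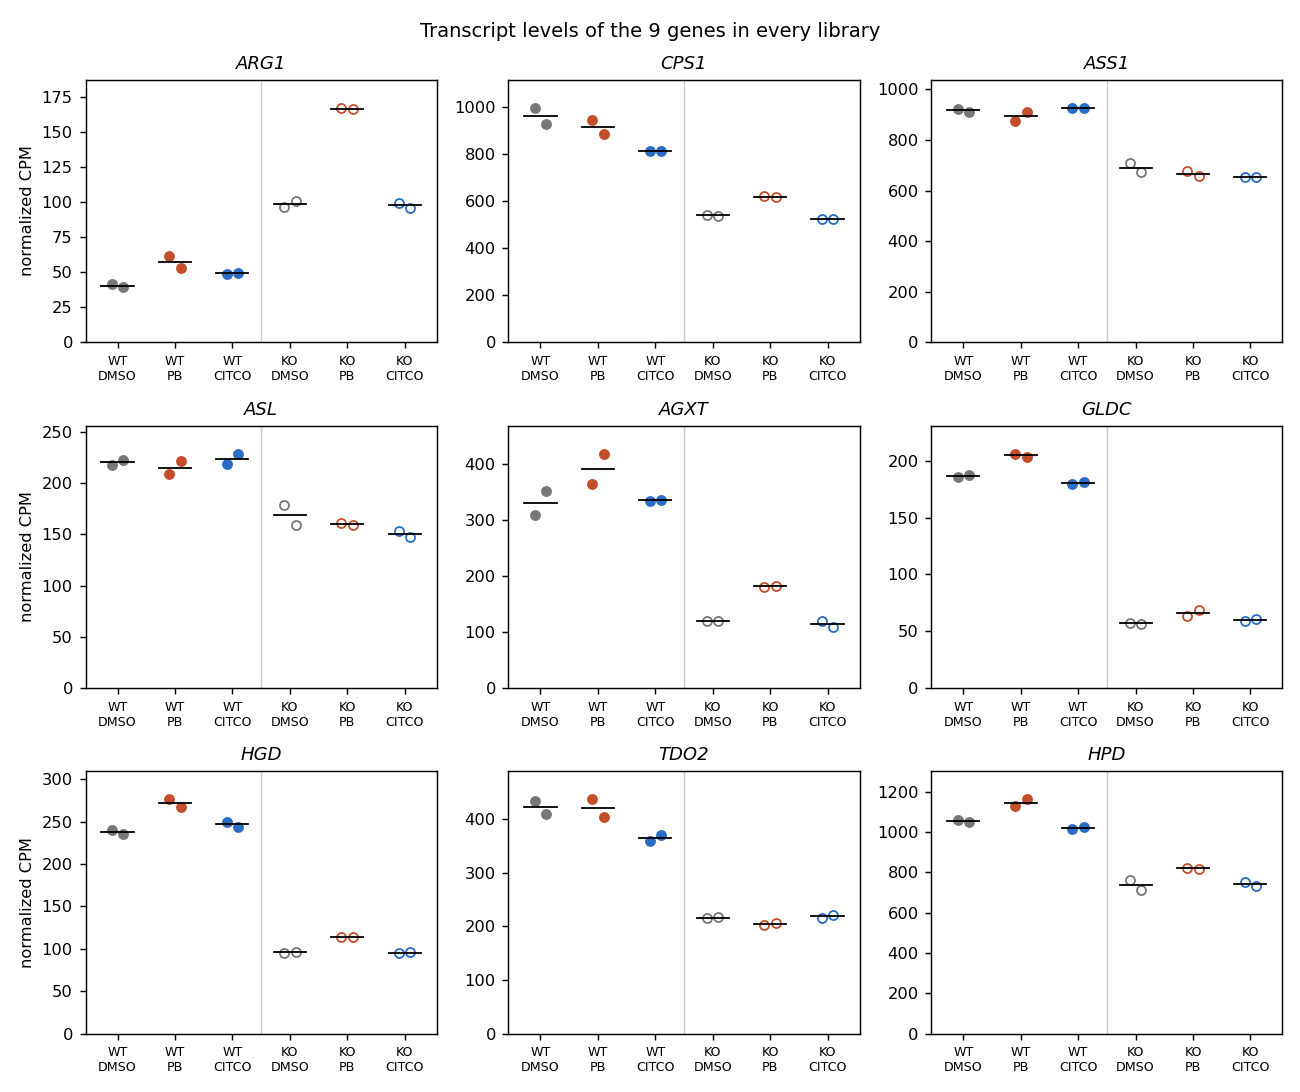
Normalized CPM of each of the 9 transcripts in all 12 libraries (vertical axis from 0, 1 panel per gene); filled points are WT, open points KO libraries, and the bar is the mean of the 2 libraries. In the ARG1 panel the open points lie above the filled ones, and in the other 8 panels they lie below them.

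Among the urea cycle enzymes, carbamoyl phosphate synthetase CPS1, which commits ammonia to the cycle, had 997 and 929 CPM in the WT DMSO libraries and 542 and 538 CPM in the KO DMSO libraries. Both KO libraries stood below both WT libraries. The log2 difference was -0.83 ± 0.04 (SE), 0.561 times the WT mean (adjusted p = 1.9e-12). Argininosuccinate synthase ASS1, which joins citrulline and aspartate, had 922 and 912 CPM in WT and 707 and 674 CPM in KO cells under DMSO, a log2 difference of -0.41 ± 0.03 (adjusted p = 9.1e-09). For argininosuccinate lyase ASL, which releases arginine and fumarate, the DMSO libraries held 218 and 223 CPM in WT and 179 and 159 CPM in KO cells, a log2 difference of -0.39 ± 0.05 (adjusted p = 3.5e-06). ASS1 and ASL, consecutive steps of the cycle, had the smallest genotype differences of the 9 under DMSO. Their differences were -0.42 and -0.42 under PB and -0.50 and -0.57 under CITCO.

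ARG1 went the other way. Its WT DMSO libraries held 41.3 and 39.4 CPM and its KO DMSO libraries 96.6 and 100.8 CPM. The lowest KO library of any treatment, at 95.6 CPM, was above the highest WT library, at 61.4 CPM. The log2 difference was 1.28 ± 0.06 under DMSO (adjusted p = 2.9e-12), 1.54 ± 0.06 under PB and 0.98 ± 0.06 under CITCO. With every library scaled to its total, ARG1's DMSO difference was 1.54, and the other 8 members stayed lower in KO cells, from -1.44 for GLDC to -0.12 for ASL (adjusted p = 0.038). That scaling moves the median of all loci by 0.25 under DMSO, and the loci called go from 4462 higher and 4644 lower to 8291 higher and 2312 lower. ARG1 overlaps MED23, a Mediator subunit gene on the opposite strand, and the sources used here do not give whether counting used strand. Means of MED23 under DMSO were 34.6 CPM (WT) and 36.4 CPM (KO) (log2 difference 0.08, adjusted p = 0.337, and 0.34 with total scaling, adjusted p = 0.00021). ASS1 has 11 pseudogenes in GENCODE 29, of which only ASS1P1 had a row, so reads shared with near-identical copies are uncertain for ASS1.

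For glyoxylate and glycine disposal, alanine-glyoxylate aminotransferase AGXT, the peroxisomal enzyme whose loss causes primary hyperoxaluria, had 309 and 351 CPM in the WT DMSO libraries. Its KO DMSO libraries had 120.1 and 119 CPM, a log2 difference of -1.46 ± 0.06 (adjusted p = 7.4e-13). GLDC, the decarboxylase subunit of the mitochondrial glycine cleavage system, had 186 and 188 CPM in WT and 57.6 and 56.6 CPM in KO cells under DMSO. Duplicates of GLDC were nearly equal in both groups, and the log2 difference was -1.70 ± 0.05 (adjusted p = 1.6e-15). Under PB and CITCO the GLDC difference was -1.63 and -1.58, and that of AGXT was -1.10 and -1.54. Under DMSO, GLDC and AGXT had the lowest KO to WT ratios of the 9 genes, followed by HGD.

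In tyrosine breakdown, 4-hydroxyphenylpyruvate dioxygenase HPD, which makes homogentisate, had 1058 and 1051 CPM in WT and 763 and 711 CPM in KO cells under DMSO. Homogentisate dioxygenase HGD, which acts on that product and is lost in alkaptonuria, had 240.4 and 235 CPM in WT and 95.2 and 96.4 CPM in KO cells. The difference was smaller for HPD, at -0.52 ± 0.04 on the log2 scale (adjusted p = 5.3e-10), than for HGD, at -1.31 ± 0.04 (adjusted p = 4.9e-15), though the gap between these 2 differences was not tested. Tryptophan dioxygenase TDO2, the step that commits tryptophan to the kynurenine pathway in liver, had 433 and 409 CPM in WT and 214 and 218 CPM in KO cells under DMSO. Its log2 difference was -0.96 ± 0.04 under DMSO (adjusted p = 1.2e-12), -1.03 ± 0.04 under PB and -0.74 ± 0.04 under CITCO. Of the 7 hepatocyte markers with a row, 5 were lower in KO cells under DMSO: ALB differed by -1.55, APOA1 by -1.79, APOB and AHSG by -0.91 each and SERPINA1 by -0.81. FGB was higher by 0.23, and TTR differed by 0.03 without passing the test, though with total scaling it was called higher by 0.29. The part of cell composition in the members' differences was not tested.

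**Figure D2:**
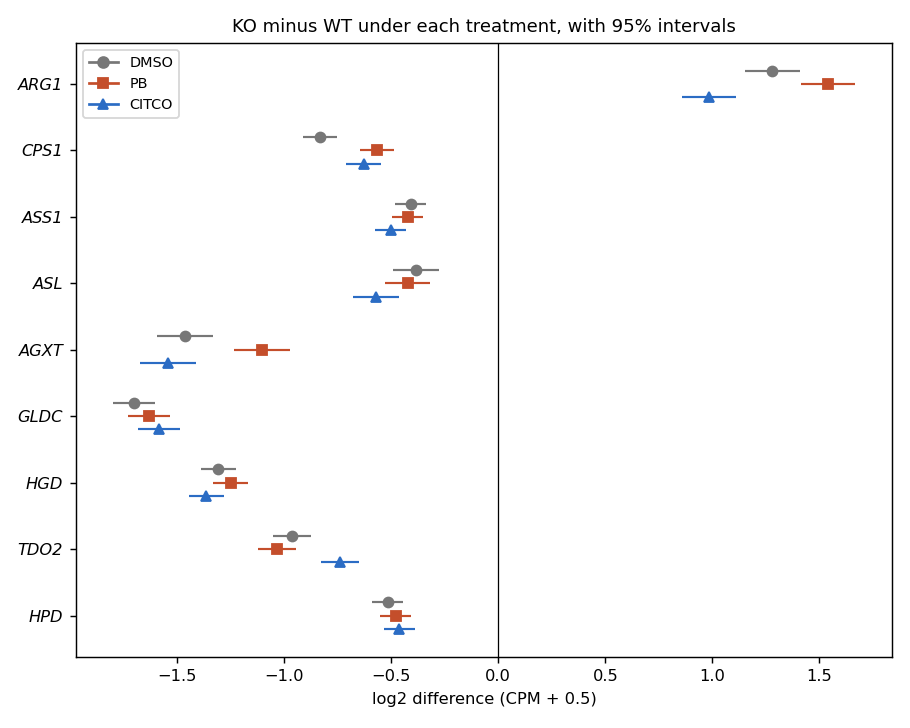
KO minus WT difference of each member on the log2(CPM + 0.5) scale under DMSO (grey circles), PB (orange squares) and CITCO (blue triangles), with 95% intervals from limma. ARG1 lies between 0.98 and 1.54, and the other 8 genes lie below 0 under every treatment, with GLDC the lowest under each.

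Of 9 regulators with a row that are known to act on such genes, 7 were lower and 1 higher in KO cells under DMSO, where 57.7% of all loci were called and 29.4% called lower. HNF4A differed by -0.87 and CEBPA by -1.11, and the pioneer factor FOXA2 was higher by 0.57. With total scaling the counts were 5 lower and 3 higher. The summed signal of the 9 members under DMSO was 4372 CPM for WT and 2724 CPM for KO, as means of 2 libraries.

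Levels of different genes are compared per kilobase of the principal GENCODE 29 transcript. In WT DMSO cells HPD was highest at 743 CPM per kilobase, followed by ASS1 at 465 and TDO2 at 248. AGXT, at 177, and CPS1, at 165, overlapped between libraries and cannot be ordered. Then came HGD at 119, ASL at 103, GLDC at 47.9 and ARG1 last at 26.3 CPM per kilobase, each apart from its neighbour in both libraries. In KO DMSO cells HPD (520), ASS1 (350) and TDO2 (127 CPM per kilobase) again led. ARG1 stood at 64.4 CPM per kilobase, with libraries overlapping those of AGXT at 64.0, and GLDC was last at 14.6. With PB, ARG1 in KO cells reached 109 CPM per kilobase, above CPS1 at 106 and below TDO2 at 120.2. Among the urea cycle members described here, WT DMSO cells thus had most ASS1 and least ARG1 transcript per kilobase. OTC, another enzyme of the cycle, was not put on this scale.

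PB raised 3 members in WT cells and 6 in KO cells. ARG1, AGXT and HGD rose in both genotypes, and CPS1, GLDC and HPD passed the test in KO cells. None fell. With a constant prior variance the counts were 1 and 3. The comparisons called 6.42% of loci in WT, 2.66% as higher, and 6.96% in KO cells, 3.87% as higher. Scaling to library totals changes the split in KO cells from 611 higher and 488 lower loci to 480 and 707, and the members' counts stayed at 3 and 6. The members' median log2 difference was 0.12 in WT and 0.20 in KO cells, and the median of all loci was -0.00497 in WT and 0.000588 in KO cells. PB and DMSO libraries did not overlap for 6 of 9 members in WT cells, against 41.5% of all loci, and for 7 of 9 in KO cells, against 50.7%.

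ARG1 had the largest response to PB in both genotypes. In WT cells it went from 41.3 and 39.4 CPM to 61.4 and 52.8 CPM, a log2 difference of 0.49 ± 0.06 (adjusted p = 2.9e-05). In KO cells it went from 96.6 and 100.8 CPM to 167 and 166 CPM, a log2 difference of 0.75 ± 0.06 (adjusted p = 1.2e-07). The PB libraries lay above both DMSO libraries in each genotype. MED23, on the opposite strand, differed by -0.02 in WT and 0.06 in KO cells with PB, neither passing the test. The ARG1 response differed between the genotypes by 0.26 with a 95% interval of 0.08 to 0.44, which did not pass the test over all loci (adjusted p = 0.251). Without 1 library, WT PB replicate 1, that difference passed the test (adjusted p = 0.018, range over all alternatives 0.018 to 0.594).

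AGXT rose from 309 and 351 CPM to 364 and 418 CPM in WT cells, 0.24 ± 0.06 on the log2 scale (adjusted p = 0.024). The duplicates of this gene spread widely in both WT groups, and the call was lost without WT DMSO replicate 1 (adjusted p = 0.238) or WT PB replicate 2 (0.249), with a constant prior variance (0.187) and with only the libraries compared (0.238). With edgeR on whole reads recovered from the WT values the adjusted p was 0.076, and over all alternatives it ran from 0.002 to 0.249. In KO cells AGXT rose from 120.1 and 119 CPM to 180.2 and 183 CPM, 0.60 ± 0.06 on the log2 scale (adjusted p = 3.1e-06). Its duplicates were close there, and the call held under every alternative tried. The AGXT response differed between the genotypes by 0.36, with a 95% interval of 0.17 to 0.55 (adjusted p = 0.065). That difference passed the test without WT DMSO replicate 1 (adjusted p = 0.009) or WT PB replicate 2 (0.007), in a range of 0.007 to 0.381 over the alternatives.

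HGD rose from 240.4 and 235 CPM to 276 and 267 CPM in WT cells, 0.19 ± 0.04 on the log2 scale (adjusted p = 0.005). In KO cells it rose from 95.2 and 96.4 CPM to 113 and 114 CPM, 0.25 ± 0.04 (adjusted p = 0.00035). The WT call was lost with a constant prior variance (adjusted p = 0.072) and when only the libraries compared were fitted (0.119). HPD, the enzyme ahead of HGD in the route, had 1127 and 1162 CPM with PB in WT cells, above both DMSO libraries, a log2 difference of 0.12 that just missed the test (adjusted p = 0.055). In KO cells it rose to 822 and 818 CPM, 0.15 ± 0.04 (adjusted p = 0.009). This KO call was lost without KO DMSO replicate 2 (adjusted p = 0.148), KO PB replicate 1 (0.098) or KO PB replicate 2 (0.082).

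GLDC had 206 and 204 CPM with PB in WT cells, a log2 difference of 0.14 that did not pass the test (adjusted p = 0.105). In KO cells it rose to 63.0 and 69.0 CPM, 0.21 ± 0.05 (adjusted p = 0.009), a call lost without KO DMSO replicate 2 (0.076) or KO PB replicate 2 (0.217). The GLDC response differed between the genotypes by 0.07, with a 95% interval of -0.07 to 0.21. CPS1 rose in KO cells from 542 and 538 CPM to 623 and 616 CPM, 0.20 ± 0.04 on the log2 scale (adjusted p = 0.003). In WT cells its PB libraries, at 947 and 886 CPM, overlapped the DMSO libraries, with a difference of -0.07. CPS1 was the only member whose PB response was called different between the genotypes, by 0.27 with a 95% interval of 0.16 to 0.38 (adjusted p = 0.019), in a comparison that called 1.01% of loci. That call was lost without WT DMSO replicate 1 (adjusted p = 0.066), WT PB replicate 2 (0.061), KO DMSO replicate 2 (0.071), KO PB replicate 1 (0.125) or KO PB replicate 2 (0.092), and with a constant prior variance (0.285) or only the libraries compared (0.087).

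ASS1, ASL and TDO2 did not pass the test with PB in either genotype. Their log2 differences lay between -0.04 and -0.01 in WT and between -0.08 and -0.05 in KO cells. The 95% intervals ran from -0.14 to 0.08 in WT and from -0.18 to 0.04 in KO cells over the 3 genes. ASS1 had 874 and 912 CPM with PB in WT and 675 and 656 CPM in KO cells. The proliferation markers summed to 396.4 and 396 CPM with PB against 335 and 328 CPM with DMSO in KO cells, and to 125 and 117 against 132 and 129 CPM in WT cells. Their part in the PB results was not tested. Hepatocyte markers summed to 154337 CPM with PB and 155570 CPM with DMSO in WT cells, and to 60340 and 60236 CPM in KO cells, as means of 2 libraries. Most of each sum was ALB, so it can hide the other markers. With PB and total scaling, SERPINA1 (0.24, adjusted p = 1.5e-05) and APOA1 (0.23, 0.010) were higher in KO cells, and ALB was lower (-0.11, 0.027). In WT cells TTR was higher (0.14, 0.016), and AHSG (-0.34, 1.3e-05) and FGB (-0.20, 0.00023) were lower. The other markers did not pass the test with total scaling. That scaling moved the median of all loci with PB to -0.022 in WT and -0.030 in KO cells. Whether these markers pass under the deposited scaling, used for the members, is not given here.

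**Figure D3:**
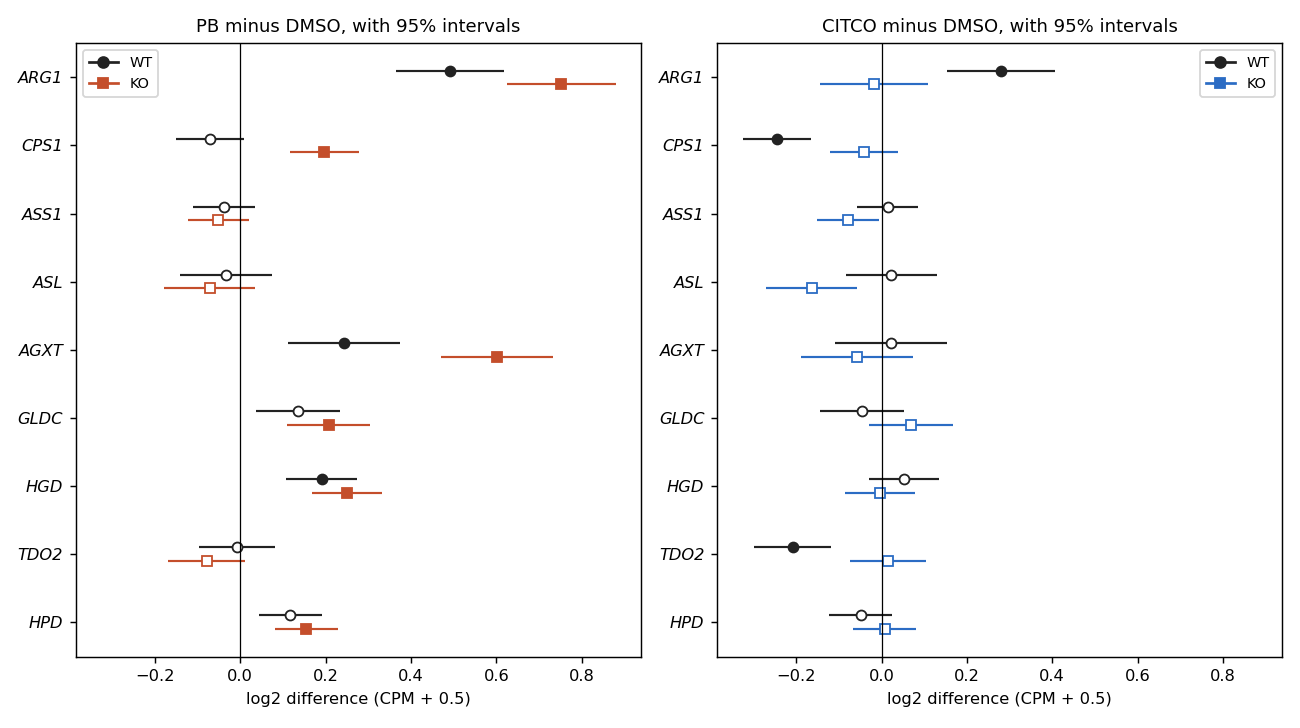
Difference from DMSO of each member on the log2(CPM + 0.5) scale with 95% intervals from limma, for PB (left) and CITCO (right); circles are WT, squares KO cells, and filled symbols passed the test. With PB, ARG1 (0.49 and 0.75) and AGXT (0.24 and 0.60) lie farthest to the right; with CITCO, only WT symbols of ARG1, CPS1 and TDO2 are filled.

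CITCO changed 3 members in WT cells and 0 in KO cells. In WT cells CPS1 and TDO2 fell and ARG1 rose, where 2.2% of loci were called. CPS1 fell from 997 and 929 CPM to 813 and 812 CPM, -0.25 ± 0.04 on the log2 scale (adjusted p = 0.001). Both CITCO libraries lay below both DMSO libraries. TDO2 fell from 433 and 409 CPM to 359 and 369.9 CPM, -0.21 ± 0.04 (adjusted p = 0.012). ARG1 rose from 41.3 and 39.4 CPM to 48.6 and 49.6 CPM, 0.28 ± 0.06 (adjusted p = 0.017). Each of the 3 calls depended on how the spread was estimated.

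With only the 4 libraries compared in the fit, the adjusted p was 0.060 for CPS1, 0.106 for TDO2 and 0.123 for ARG1. The CPS1 call held without any single library, in a range of adjusted p over all alternatives of 0.00028 to 0.103. The TDO2 call was lost without WT DMSO replicate 1 (adjusted p = 0.155), WT CITCO replicate 1 (0.189) or WT CITCO replicate 2 (0.068), and the ARG1 call without WT CITCO replicate 1 (0.122) or 2 (0.172). ARG1 also missed the test with edgeR (adjusted p = 0.113) and DESeq2 (0.052) on recovered reads, as TDO2 did with edgeR (0.084). Hepatocyte markers summed to 140380 and 140327 CPM with CITCO in WT cells against 158034 and 153105 CPM with DMSO. Most of that was ALB, at 113477 and 113538 CPM with CITCO against 129931 and 125205 CPM with DMSO. With total scaling ALB (-0.14), FGB (-0.13) and AHSG (-0.37) were called lower, and the other hepatocyte markers were not called. All 3 proliferation markers rose, from sums of 132 and 129 CPM to 163 and 165 CPM. The part of these in the CPS1, TDO2 and ARG1 results was not tested. The remaining 6 members lay between -0.05 and 0.05 on the log2 scale with CITCO in WT cells, and none passed the test.

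In KO cells CITCO gave no call among the members, where limma called 0.811% of loci. At an unadjusted p under 0.05, which 11% of all loci reached, there were 2, ASL with 153 and 148 CPM against 179 and 159 CPM under DMSO, and ASS1 with 653 and 654 CPM against 707 and 674 CPM. Their log2 differences were -0.16 (adjusted p = 0.183) and -0.08 (adjusted p = 0.401). The 3 genes called in WT cells differed in KO cells by -0.04 for CPS1, 0.02 for TDO2 and -0.02 for ARG1. Their CITCO libraries overlapped the DMSO libraries for TDO2 and ARG1. The proliferation markers were higher with CITCO in KO cells as well, with sums of 398 and 415 CPM against 335 and 328 CPM with DMSO. Their part in these results was not tested. The difference of the CITCO responses between the genotypes was 0.20 for CPS1 (95% interval 0.09 to 0.32, adjusted p = 0.140), 0.22 for TDO2 (0.10 to 0.35, adjusted p = 0.149) and -0.30 for ARG1 (-0.48 to -0.12, adjusted p = 0.173). None of the 9 members passed that test, which called 0.336% of loci. At an unadjusted p under 0.05, reached by 12.6% of all loci, there were 4, these 3 and ASL. Without WT DMSO replicate 2, the difference passed for CPS1 (adjusted p = 0.017) and TDO2 (0.031).

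PB and CITCO were also set against each other. In WT cells 7 members, all but ASS1 and ASL, were higher with PB than with CITCO, by 0.14 (HGD) to 0.22 (AGXT) on the log2 scale, where 6.28% of loci were called, 2.65% as higher. TDO2 had 436 and 402 CPM with PB and 359 and 369.9 CPM with CITCO, a difference of 0.20 ± 0.04 (adjusted p = 0.008). This count fell to 3 with total scaling, which also moves the loci called from 419 higher and 573 lower to 250 and 947, and without single libraries it was 2 (WT PB replicate 1), 6 (WT PB replicate 2), 0 (WT CITCO replicate 1) or 1 (WT CITCO replicate 2). In KO cells 5 members were higher with PB than with CITCO, where 5.48% of loci were called, 3.57% as higher: ARG1 by 0.77, AGXT by 0.66, HGD by 0.25, CPS1 by 0.24 and HPD by 0.15. With total scaling the loci called go from 563 higher and 302 lower to 388 and 596, HPD is no longer called (adjusted p = 0.082) and TDO2 is called lower, by -0.14 (adjusted p = 0.048), so that 4 members are higher and 1 lower. The HPD call was also lost without any 1 of the 4 KO libraries compared. The sources used here do not give whether doses of the agents were matched, and these comparisons share libraries with those against DMSO.

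Profiles over the 12 libraries were compared by the root mean square distance of centred log2(CPM + 0.5) values among 11611 loci with a mean of at least 5 CPM. The locus nearest to ASL was ASS1, at a distance of 0.040, although the pair lie on chromosomes 7 and 9. Seen from ASS1, ASL had rank 4, behind ECH1 (0.036), HYAL1 and CYB5D2. HYAL1 and CYB5D2 were also the next nearest to ASL. The nearest locus to HPD was RP11-7M8.2 at 0.032, to TDO2 TSHZ2 at 0.040, to HGD the catalase gene CAT at 0.045, to CPS1 the complement gene CFI at 0.055 and to GLDC CCDC25 at 0.056. AGXT was nearest to AZGP1 at 0.096. ARG1 lay farther from its neighbours, among them CA12 at 0.162 and the bile salt exporter gene ABCB11 at 0.167. These distances describe the 12 libraries and are dominated by the genotype difference.

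Beyond the 9 members, 55 of 66 further symbols of amino acid metabolism had a row, as 57 loci in 8 lists. Under DMSO, 44 of those 57 loci were lower and 6 higher in KO cells. Of all loci, 57.7% were called in that comparison and 29.4% called lower. Of 11 loci of the urea cycle and its nitrogen supply, 8 were lower and 1 higher. GLS2, the liver glutaminase, differed by -0.81, and the mitochondrial urea cycle enzyme OTC, named outside the rule for its place in the cycle, by -0.23 (adjusted p = 0.00068) under the deposited scaling and by 0.03 with total scaling. Of 12 loci of glycine, serine and glyoxylate metabolism, 8 were lower and 2 higher, GRHPR, which reduces glyoxylate, standing at 0.499 times its WT level.

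In tyrosine and phenylalanine breakdown 4 of 5 were lower. FAH, which carries out the last step of tyrosine breakdown, differed by -1.14. Of other enzymes of that route, chosen after their values were seen, GSTZ1 differed by -1.02 and TAT by -0.08 without passing the test. With total scaling TAT was called higher by 0.19. All 9 loci of branched-chain amino acid breakdown were lower, BCKDHB by -1.23. So were 4 of 5 loci of methionine and cysteine metabolism, the cystathionine lyase gene CTH by -1.87, and 5 of 7 of lysine and proline breakdown, PRODH by -1.72. PRODH and CBS each have 2 loci in the table, so their reads may be shared. In tryptophan breakdown 5 of 6 were lower and 1 higher, HAAO by -0.72. Of 2 histidine loci 1 was higher, the histidase gene HAL, by 1.65. The other, AMDHD1, stood lower in KO cells, at 5.34 and 5.61 CPM against 6.85 and 8.39 CPM in WT. With total scaling 12 loci of the 8 lists were higher and 36 lower.

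With PB, 16 of the 57 loci rose and 2 fell in WT cells, and 19 rose and 3 fell in KO cells. Of all loci, 6.42% were called in WT, 2.66% as higher, and 6.96% in KO cells, 3.87% as higher. With total scaling 15 of the 57 rose and 3 fell in WT cells, and 16 rose and 4 fell in KO cells. PRODH2, which degrades hydroxyproline, a source of glyoxylate, rose most in both, from 30.8 to 63.4 CPM in WT (log2 1.03 ± 0.07) and from 29.3 to 64.0 CPM in KO cells (1.11 ± 0.07). The D-amino acid oxidase gene DAO rose by 0.50 in WT and 0.45 in KO cells, and BCAT2 by 0.46 and 0.41. The BCAT2 calls were lost without WT DMSO replicate 1 (adjusted p = 0.068) or WT PB replicate 2 (0.098) in WT cells, and without KO DMSO replicate 2 (0.170), KO PB replicate 1 (0.136) or KO PB replicate 2 (0.075) in KO cells. All 5 loci of methionine and cysteine metabolism rose in KO cells, CDO1, which oxidises cysteine, by 0.79, and 3 of 5 rose in WT cells, CTH by 0.49. These loci stand for 4 genes, as CBS has more than 1 locus and its reads may be shared. GLS2 and FAH rose by 0.46 and 0.30 in WT cells. In KO cells the citrin gene SLC25A13, whose product exports aspartate for ASS1, rose by 0.38, PCBD1, which regenerates the tetrahydrobiopterin cofactor, rose by 0.42 and KMO fell by 0.34. The KMO call was lost without KO DMSO replicate 2 (adjusted p = 0.120) or KO PB replicate 2 (0.166).

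With CITCO 2 of the 57 loci were called in WT and 1 in KO cells, where 2.2% and 0.811% of all loci were. In WT cells PRODH2 rose by 0.44 and AASS, the first enzyme of lysine breakdown, differed by -0.26 (adjusted p = 0.022). AASS, named outside the rule as the other locus called, differed by -0.23 with total scaling (adjusted p = 0.044). How its call fares under the other alternatives is not given here. In KO cells only GNMT was called, at -0.46 (adjusted p = 0.043), and that call was lost without any 1 of the 4 libraries compared (adjusted p 0.107 to 0.336). Among the regulators, CREB3L3, a hepatic transcription factor of the fasting response, rose with PB by 0.28 in WT and 0.79 in KO cells. ATF4, the transcription factor of the amino acid stress response, rose by 0.16 and 0.34, the former not passing with total scaling (0.14, adjusted p = 0.070), and PPARA rose by 0.34 and 0.21. For PPARGC1A, both PB libraries lay below both DMSO libraries in each genotype. Whether it passes under the deposited scaling, used for the regulators just named, is not given here. With total scaling PPARGC1A was called lower with PB in KO cells (-0.22, adjusted p = 0.035) and did not pass in WT cells (-0.18, adjusted p = 0.0995). That scaling also moves the median of all loci with PB in KO cells down, to -0.030. HNF4A and CEBPA did not pass the test with PB in either genotype, and 0 of 9 regulators passed it with CITCO (limma), in WT or in KO cells.

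**Figure D4:**
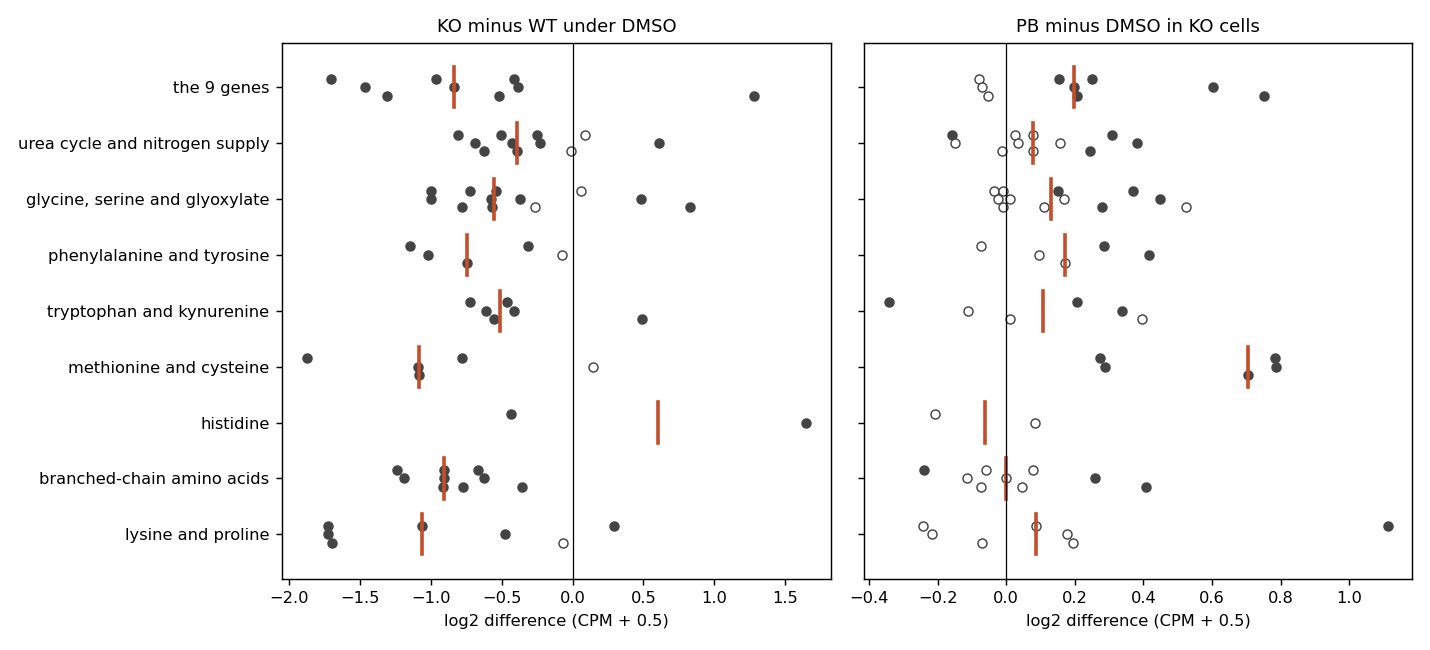
Each point is 1 locus of the 9 members or of 8 further lists of amino acid metabolism, on the log2(CPM + 0.5) scale, for KO minus WT under DMSO (left) and PB minus DMSO in KO cells (right); filled points passed the test and red bars are list medians. On the left, points of 7 of the 8 further lists have their median below 0. Histidine is the exception, with 2 loci on opposite sides of 0. On the right, all 5 methionine and cysteine loci, of 4 genes, are filled and above 0.

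The authors' deposited tables of comparisons give their own test. Under an FDR of 0.05 the authors' deposited tables hold 9 of 9 members for KO against WT under DMSO (58.6% of their loci), 5 for PB in KO cells (9.36%), 2 for PB in WT cells (7.76%), 3 for CITCO in WT cells (3.38%) and 0 for CITCO in KO cells (2.25%). HPD with PB in KO cells (FDR 0.066) and AGXT with PB in WT cells (FDR 0.063) are not among those in the authors' deposited tables. For the difference of PB responses, the authors' deposited table gives CPS1 an FDR of 0.077, with 1.98% of loci under 0.05.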

How the data were processed

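RNA was sequenced from 12 HepaRG libraries, 2 in each of 6 groups. Per the submitters' processing notes, edgeR 2.12, TopHat2 2.0.10, Cufflinks 2.1.1, Bowtie 1.0.0 and Cuffdiff 2.1.1 were used on human assemblies GRCh38 and GRCh37, with no role or order given. The authors deposited 1 table of normalized signal per locus that its name calls CPM. The plan assumed plain CPM, but library totals differ from those of plain CPM, and in all 12 libraries 100% of values are whole multiples of 1 read, within 0.001 reads. The authors also deposited tables of log2 fold changes, test scores (likelihood ratios and mean log2 CPM) and p-values with FDR. In the authors' deposited tables named KO PB against WT PB and KO CITCO against WT CITCO, the values are differences of responses, by their sign and size against the fits here.

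limma 3.58.1 (R 4.3.3, trend on expression) was fitted to log2(CPM + 0.5) over all 12 libraries as 6 group means, which leaves 6 residual degrees of freedom. Of 15822 loci, 15792 reached 1 CPM in 2 or more libraries and were tested, among them all 9 members. P-values were adjusted by Benjamini-Hochberg over these loci in each of 11 comparisons and called under 0.05. The added 0.5 makes fold changes of low genes too small. Data were also simulated for PB in KO cells over 15747 loci. The fit called 100 of 100 loci changed by 1 on the log2 scale, 98 of 100 changed by 0.5 and 6 unchanged loci. Every simulated locus had the same spread beyond sampling noise, which real loci need not share, and only loci with a mean of 5 CPM or more were changed. No change smaller than 0.5 was simulated, so recovery of smaller changes and the rate of false calls in the real data are not known from it.

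Alternatives were pseudocounts of 0.1 and 1, no filter, a filter on 8 libraries, scaling to library totals, a constant prior variance, only the libraries compared, a replicate block, each library left out, and edgeR 4.0.16 and DESeq2 1.42.0 on whole reads recovered for WT libraries. KO libraries, with fewer low values to set the step by, were kept out of these count tests. Their values were whole multiples of 1 read too, so no count test was run on comparisons with KO cells, though one could have been. Other genes named are those with the largest called change in each of 8 pathway lists and comparison, with 5 CPM or more as the mean of a group, with exceptions said in place. Members and lists were chosen with earlier results of these data known. Gene structures are GENCODE 29's. Some genes of the lists and likeness ranking are not reported here.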

Additional observations from a re-analysis of the deposited data

Results flagged for a closer look

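Responses that differed between the genotypes by the test of the difference itself were the ones picked out here, on the log2 scale as KO minus WT. The PB response differed by 0.27 for CPS1, by 0.40 for HAAO, which acts late in tryptophan breakdown, and by 0.34 for MAT1A, the liver methionine adenosyltransferase. For the regulator CREB3L3 the PB response differed by 0.51. The HAAO difference was at adjusted p = 0.048 and was lost with total scaling (0.058), a pseudocount of 0.1 (0.0502), a constant prior variance (0.225), only the libraries compared (0.081) and without any 1 library except KO DMSO replicate 1, in a range of 0.033 to 0.248 over the alternatives. MAT1A and CREB3L3 lost the call only with a constant prior variance. MAT1A went from 612 to 789.8 CPM with PB in WT and from 357 to 582 CPM in KO cells. CYP2B6, the marker of CAR activation, differed by 0.90 in its PB response and by -2.78 in its CITCO response.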

How the results depend on the processing

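The genotype differences kept 9 of 9 calls under every alternative run for them, which did not include the count tests. The other counts of members called moved as follows. With a constant prior variance they were 1 for PB in WT, 0 for CITCO in WT, 3 for PB in KO, 0 for the difference of PB responses, 0 for PB against CITCO in WT and 3 in KO cells. With only the libraries compared they were 1 for PB in WT, 0 for CITCO in WT, 0 for the difference of PB responses and 2 for PB against CITCO in WT cells. With total scaling PB against CITCO in WT cells gave 3. On recovered reads PB in WT, CITCO in WT and PB against CITCO in WT gave 2, 1 and 4 with edgeR and 3, 2 and 5 with DESeq2. Leaving out 1 library gave 2 to 3 for PB in WT, 1 to 3 for CITCO in WT, 4 to 6 for PB in KO, 0 to 2 for either difference of responses, 0 to 6 for PB against CITCO in WT and 4 in KO cells. Fewer libraries remain in these last fits; otherwise the cause was not tested.

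Sign changes among the members were all of uncalled values near 0. With 1 library left out, ASL ran from -0.077 to 0.011 and TDO2 from -0.065 to 0.050 for PB in WT cells, ASL from -0.010 to 0.055 and AGXT from -0.071 to 0.113 for CITCO in WT cells, and ASL from -0.157 to 0.014 for PB in KO cells. For CITCO in KO cells ARG1 ran from -0.047 to 0.014, AGXT from -0.127 to 0.0098, HGD from -0.018 to 0.011, TDO2 from -0.0070 to 0.037 and HPD from -0.043 to 0.058. For the difference of PB responses ASS1 ran from -0.048 to 0.021, ASL from -0.124 to 0.048 and HPD from -0.013 to 0.088, and for that of CITCO responses AGXT ran from -0.172 to 0.012. TDO2 with PB in WT cells was 0.0026 with DESeq2. With total scaling HGD with CITCO in KO cells was 0.013 and ASS1 for PB against CITCO in KO cells was -0.022. Among other genes, total scaling turned the KO minus WT difference under DMSO to 0.034 for OTC (adjusted p = 0.552) and to 0.187 for TAT (adjusted p = 0.008).

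The replicate block changed 1 call of a member, with 6 members in place of 7 for PB against CITCO in WT cells. The labels share replicate numbers between groups without saying that they pair libraries. Of 15 pairs of groups, deviations of same-numbered libraries correlated over 0.1 in 6, among them WT DMSO with WT PB (0.433) and with KO DMSO (0.356) and KO DMSO with KO PB (0.340), and under -0.1 in 2 (lowest -0.175), so the numbers were not taken to pair them.

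Counts over all loci also moved. Over the alternatives other than leaving out a library they ran from 242 to 1094 for PB in WT, 72 to 367 for CITCO in WT, 612 to 1501 for PB in KO, 20 to 232 for CITCO in KO, 25 to 158 and 6 to 58 for the differences of PB and CITCO responses, and 434 to 1197 and 452 to 1798 for PB against CITCO in WT and KO cells. Leaving out 1 library, they ran from 811 to 1102 for PB and 109 to 992 for CITCO in WT, 523 to 671 and 40 to 55 in KO, 66 to 213 and 23 to 491 for the differences of PB and CITCO responses, and 377 to 1215 and 392 to 457 for PB against CITCO in WT and KO cells. On recovered reads edgeR called 554 loci for PB, 137 for CITCO and 500 for PB against CITCO in WT cells. Depth was at least 1852 recovered reads for each member in each library, and each group had 2 libraries.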
